A study of Homo sapiens with 12 samples.

Results

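The response of control cells to serum was read from 4 of the 12 libraries of the series, chosen by their titles: 2 of siControl cells before serum and 2 of siControl cells after serum. The cells were HCT116, a human colon carcinoma line that carries an activating mutation of beta-catenin. All 4 libraries came from cells transfected by Oligofectamine with a control small interfering RNA (siControl), for which the labels name no target gene. Serum was withdrawn 24 h after the siRNA was added, and starvation lasted 48 h in both groups. The first group was taken at the end of starvation, and the second was taken 90 min after serum was given back. The comparison therefore holds no untransfected cells and no cells kept in serum. The other 8 libraries were of cells given siPFDN2 or siPFDN5, directed against subunits of the chaperone prefoldin, at the same 2 time points. The labels do not say whether the 2 libraries of a group came from separate cultures, so p-values measure only the spread between these libraries. Being bulk samples, they cannot tell more cells that express a gene from more RNA per cell.

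Serum given to starved cells activates growth factor receptors, the MAP kinase cascade, and signalling to the actin cytoskeleton. Serum response factor (SRF), CREB, AP-1, NF-kB and the YAP and TEAD proteins are among the regulators that then switch on immediate-early genes, which need no new protein to be transcribed. Introns are spliced out and destroyed soon after they are transcribed, so that intronic reads come mostly from precursor RNA, whereas exonic reads come mostly from mature mRNA that can persist for hours.

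The promoters of 3 genes are shown because matches to motifs of serum-regulated factors lie in them more than singly; they were chosen after the matches were seen. EGR1 is the classical SRF target, CTGF a YAP and TEAD target, and CPA4 a gene whose introns rose far more than its exons. The sequences are from RefSeq (GRCh38.p14), 5′ to 3′ on the gene's strand, and end before the annotated transcripts begin. The stretch of EGR1 is chr5:138465229-138465478 on the plus strand, that of CTGF chr6:131951374-131951622 on the minus strand, and that of CPA4 chr7:130292911-130293133 on the plus strand. Capitals mark CArG boxes (the core bound by SRF) in EGR1, GGAATG (the TEAD core) in CTGF, and the TEAD core and TGANTCA (AP-1) in CPA4.
EGR1: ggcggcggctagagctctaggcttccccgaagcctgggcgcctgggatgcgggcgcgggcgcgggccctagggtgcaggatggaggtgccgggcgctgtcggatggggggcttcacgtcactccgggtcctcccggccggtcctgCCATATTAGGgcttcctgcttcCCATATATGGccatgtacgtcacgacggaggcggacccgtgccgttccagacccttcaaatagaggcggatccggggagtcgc
CTGF: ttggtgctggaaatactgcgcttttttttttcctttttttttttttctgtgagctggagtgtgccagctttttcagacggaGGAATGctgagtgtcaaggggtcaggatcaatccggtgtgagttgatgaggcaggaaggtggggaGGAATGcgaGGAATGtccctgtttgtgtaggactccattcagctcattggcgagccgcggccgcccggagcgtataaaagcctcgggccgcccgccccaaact
CPA4: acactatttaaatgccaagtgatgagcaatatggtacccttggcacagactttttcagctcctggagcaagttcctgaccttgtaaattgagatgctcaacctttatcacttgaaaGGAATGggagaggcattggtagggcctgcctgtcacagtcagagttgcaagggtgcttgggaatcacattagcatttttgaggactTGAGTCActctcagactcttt
The CArG boxes of EGR1 begin 105 and 83 bases before the start site, and the TEAD cores of CTGF begin 169, 104 and 95 bases before it. In CPA4 the TEAD core begins 134 bases and the AP-1 match 48 bases before the RefSeq start, and a further AP-1 match at 15 bases lies past the stretch shown.

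Total RNA, depleted of 18S ribosomal RNA, was sequenced, and the authors counted fragments over whole gene bodies and over exons. Gene-body counts summed to between 80139644 and 136504590 per siControl library. Intronic counts were taken as gene-body minus exon counts, for genes that overlap no other annotated gene. Abundance is given in CPM, the usual unit of counts relative to the scaled library total, taken over the same kind of count, so that exonic and intronic CPM are on different scales. One library stood apart. In replicate 1 after serum, introns held 6.90% of the gene-body counts of non-overlapping genes, against 3.95% and 4.22% in the libraries before serum and 3.61% in replicate 2 after it. In 232 long genes with the lowest intronic signal it had 0.545 intronic CPM per Mb (relative to all gene-body counts), and the other 3 had between 0.397 and 0.419. The share differed between the groups by 1.17 percentage points (exact two-sided permutation test p = 1, smallest possible p = 0.333) and by -0.478 points without that library. All 8 epithelial markers were expressed, and no marker of leukocytes (0 of 4) or hepatocytes (0 of 2) passed the filter. In gene-body counts 3 of 3 endothelial and 3 of 4 fibroblast markers passed the filter, and 1 of each list rose. Introns of the endothelial CDH5 held 4 and 4 counts without serum and 29 and 23 with it, and the collagen COL1A1 read 6.21 and 4.85 exonic CPM without serum and 17.6 and 13.2 with it; the part of other cells in the results was not tested. PFDN2, targeted elsewhere in the series, was measured at 11.5 and 11.2 gene-body CPM without serum and 19.5 and 16.3 with it (log2 change 0.65, edgeR adjusted p = 0.0225), and PFDN5 at 76.8, 68.9, 67.9 and 74.0.

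**Figure D1:**
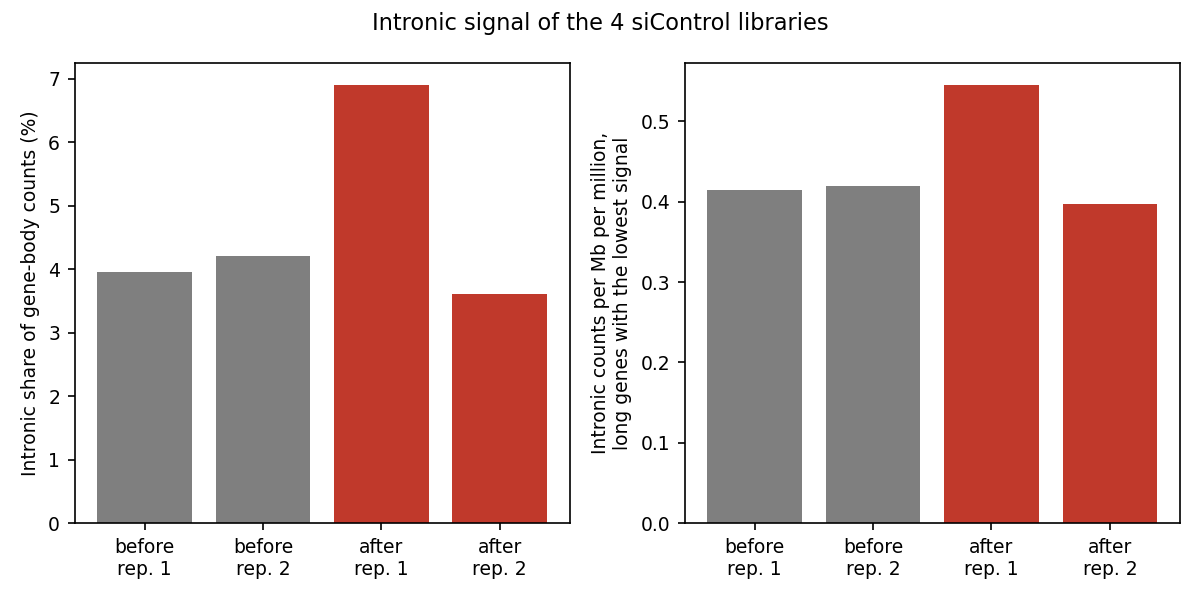
The left panel plots the intronic share of gene-body counts in percent, over genes without overlap, and the right panel plots intronic CPM per Mb of intron in long genes with the lowest signal. Each bar is 1 siControl library, grey before and red after serum, and replicate 1 after serum is the highest in both panels, at 6.90% and 0.545.

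Serum changed both mature and precursor RNA within 90 min, and more genes rose than fell. In exon counts 1085 genes rose and 636 fell among 23544 tested (7.31% called in all, 4.61% higher and 2.70% lower). The test was edgeR's quasi-likelihood test, and calls were made at a p of 0.05 after Benjamini-Hochberg adjustment. Over whole gene bodies 812 genes rose and 253 fell among 26448 (4.03% called, 3.07% higher and 0.957% lower). In intronic counts 295 genes rose and 128 fell among 4723 (8.96% called, 6.25% higher and 2.71% lower). The exonic log2 change differed from the intronic one in 195 of 4255 genes in which both could be tested (4.58% called). It lay above the intronic change in 84 genes (1.97%) and below it in 111 (2.61%). Counts of intronic calls moved with single libraries, to 187 and 260 without replicate 1 or 2 before serum and to 650 and 1319 without replicate 1 or 2 after it. For the difference of exonic and intronic change the same counts were 54, 37, 369 and 917, and gene-body calls numbered 4490 without replicate 2 after serum. Scaled by library size alone, the median log2 change of all genes was -0.0712 in exons and -0.259 in introns, against -0.0002 and 0.0232 with the scaling used here. On that scale exonic calls divided into 782 higher and 954 lower and intronic calls into 217 and 241. The difference divided into 127 above and 89 below with library size alone, and into 16 and 40 with the gene-body scaling applied to both tables.

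Of the 30 immediate-early transcription factors listed, 25 rose in exon counts and none fell, with a median log2 change of 2.73 against 0.00 for all genes. Over all genes tested 4.61% rose in exon counts and 2.70% fell. The lists here and below were written with earlier results of these data known, so their counts are a description and no test. NR4A3, an orphan nuclear receptor, went from 0.639 and 0.807 exonic CPM to 356 and 321 (0.723 ± 0.119 against 338 ± 24.8, SD, n = 2 per group). The groups were far apart, and the log2 change of 8.86 (SE 0.16, edgeR adjusted p = 9.17e-12) was the largest in the list. NR4A1, of the same family, went from 7.84 and 8.60 exonic CPM to 658 and 525, and NR4A2 from 19.1 and 16.8 exonic CPM to 523 and 461. ATF3, a bZIP factor of the stress response, went from 8.74 and 9.84 exonic CPM to 316 and 248 (9.29 ± 0.775 against 282 ± 47.7, SD, n = 2 per group). Its log2 change was 4.92 (SE 0.15, edgeR adjusted p = 4.36e-09). FOSB, a partner of JUN in AP-1, went from 2.13 and 2.0 exonic CPM to 373 and 228, and EGR3, a zinc finger factor, from 1.52 and 1.18 exonic CPM to 123 and 97.1. In each of these the lower of the libraries after serum still lay far above both starved ones. FOSB, EGR3 and NR4A1 each overlap 1 other annotated gene, and counts made without strand cannot divide the reads between them. AC025259.3, annotated as a long noncoding RNA inside NR4A1 on the other strand, went from 2.05 and 2.35 gene-body CPM to 179 and 174.

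Smaller rises in the same list were those of FOSL1 (log2 change 2.99), KLF6 (2.75), JUN (2.72), SRF itself (2.17) and the proto-oncogene MYC (0.58). MYC went from 205 and 227 exonic CPM to 289 and 356, and its groups did not overlap (edgeR adjusted p = 0.00981). FOS, EGR1, IER2, IER5 and CEBPB did not pass. FOS, the other classical AP-1 subunit, read 8.86 and 7.26 exonic CPM without serum and 90.3 and 43.7 with it (log2 change 3.05, SE 0.54, adjusted p = 0.146). EGR1 read 31.5 and 19.8 exonic CPM without serum and 182 and 102 with it (log2 change 2.47, SE 0.50, adjusted p = 0.170), and IER2 33.9 and 29.8 exonic CPM without serum and 112 and 68.9 with it (1.51, adjusted p = 0.0797). In all 3 the groups did not overlap, and after serum replicate 1 lay well above replicate 2. IER5 stayed between 35.5 and 40.8 exonic CPM and CEBPB between 16.5 and 17.9 exonic CPM. Without replicate 1 after serum, 26 of the 30 factors rose and none fell.

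Genes that feed back on MAP kinase signalling gave 9 rises and 1 fall among 18, beside 4.61% and 2.70% of all genes. The phosphatase DUSP5, which acts on ERK in the nucleus, went from 70.8 and 80.2 exonic CPM to 1082 and 1024 (log2 change 3.80, SE 0.12, edgeR adjusted p = 5.70e-10). Its relatives DUSP1 (2.76), DUSP2 (2.29), DUSP8 (1.91), DUSP4 (1.88) and DUSP14 (0.87) rose too. So did ERRFI1 (1.67), an inhibitor of the EGF receptor, RGS2 (1.10), which limits G protein signalling, and IER3 (1.05). SPRY1, a Sprouty inhibitor of receptor signalling, fell from 3.96 and 4.61 exonic CPM to 1.37 and 1.84 (log2 change -1.40, adjusted p = 0.000404). The other 8, among them SPRY2, SPRY4, the 3 SPRED genes and DUSP6, had log2 changes between -0.30 and 0.50 and did not pass.

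Genes of NF-kB feedback and mRNA decay gave 12 rises and no fall among 17, while 4.61% of all genes rose. Their median log2 change was 1.30. TNFAIP3, a ubiquitin-editing inhibitor of NF-kB signalling, went from 2.59 and 2.58 exonic CPM to 33.7 and 26.1 (log2 change 3.53, adjusted p = 2.24e-08). NFKBIA, which holds NF-kB in the cytoplasm, went from 31.1 and 30.5 exonic CPM to 76.8 and 74.8, and BIRC3, an inhibitor of apoptosis, from 6.76 and 8.48 exonic CPM to 22.5 and 25.3. The decay regulators BTG2 (log2 change 1.55), ZFP36L2 (1.33), ZC3H12A (1.32) and ZFP36L1 (0.85) rose as well. ZFP36, which binds AU-rich mRNA, read 16.02 and 11.7 exonic CPM without serum and 72.8 and 42.9 with it and did not pass (adjusted p = 0.122).

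Secreted and matrix signals rose in 19 of 23 tested genes of the 25 listed, beside 4.61% of all genes. Their median log2 change was 2.28, and none fell. The matricellular protein CYR61 went from 5.77 and 5.17 exonic CPM to 533 and 434 (5.47 ± 0.427 against 484 ± 70.2, SD, n = 2 per group). Its log2 change was 6.47 (SE 0.15, edgeR adjusted p = 8.34e-11). CTGF, of the same family, went from 2.06 and 1.67 exonic CPM to 161 and 144, and THBS1, an adhesive glycoprotein, from 9.70 and 10.7 exonic CPM to 596 and 525; both overlap other annotated genes. The neutrophil chemokine CXCL8 went from 0.918 and 0.877 exonic CPM to 60.5 and 47.2, and the chemokine CCL20 from 0.0133 and 0 exonic CPM to 0.442 and 0.603. EDN1, the precursor of the vasoconstrictor endothelin, went from 0.253 and 0.222 exonic CPM to 12.3 and 9.76. CXCL8, CCL20 and EDN1 were close to silent in starved cells, and in each both libraries after serum lay above both before it. The EGF receptor ligands AREG, HBEGF and EREG were expressed before serum and rose further. AREG went from 141 and 151 exonic CPM to 596 and 625 (log2 change 2.07), HBEGF from 5.17 and 5.36 exonic CPM to 17.3 and 18.8 (1.78) and EREG from 659 and 692 exonic CPM to 1560.3 and 1711 (1.28). TGFA (0.21), VEGFA (0.20), IL11 (0.78) and EPGN (1.17) did not pass.

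Actin cytoskeleton genes that SRF controls with its actin-sensing partner MRTF gave 15 rises and no fall among 22. Their median log2 change was 0.59, and 4.61% of all genes rose. VCL, which links actin to adhesions, went from 212 and 227 exonic CPM to 422 and 470.1 (log2 change 1.02), and the nonmuscle myosin MYH9 from 257 and 260.1 exonic CPM to 639 and 479.9 (1.11). The smooth muscle genes CNN1 (3.68) and TAGLN (2.13) had the largest log2 changes of this list, from 0.0665 and 0.0702 exonic CPM for CNN1. The cytoplasmic actins ACTB (0.60, adjusted p = 0.00353) and ACTG1 (0.62, adjusted p = 0.00243) rose less. The 7 that did not pass, among them FLNA, TPM1, TPM2 and FHL1, lay between 0.00 and 0.34.

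YAP and TEAD targets gave 8 rises and no fall among 17 tested of 18, beside rises in 4.61% of all genes. Beside CYR61 and CTGF these were the kinase NUAK2 (log2 change 4.09), ANKRD1 (3.81), the YAP inhibitors LATS2 (1.90) and AMOTL2 (1.89), the clotting initiator F3 (1.72) and ASAP1 (0.46). NUAK2 went from 3.75 and 3.22 exonic CPM to 65.3 and 53.2, with a wide gap between the groups. The 9 that did not pass, among them AXL, AJUBA, AMOTL1 and MYOF, lay between -0.04 and 0.37. Without replicate 1 after serum, 14 cytoskeletal genes and 7 YAP and TEAD targets rose.

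**Figure D2:**
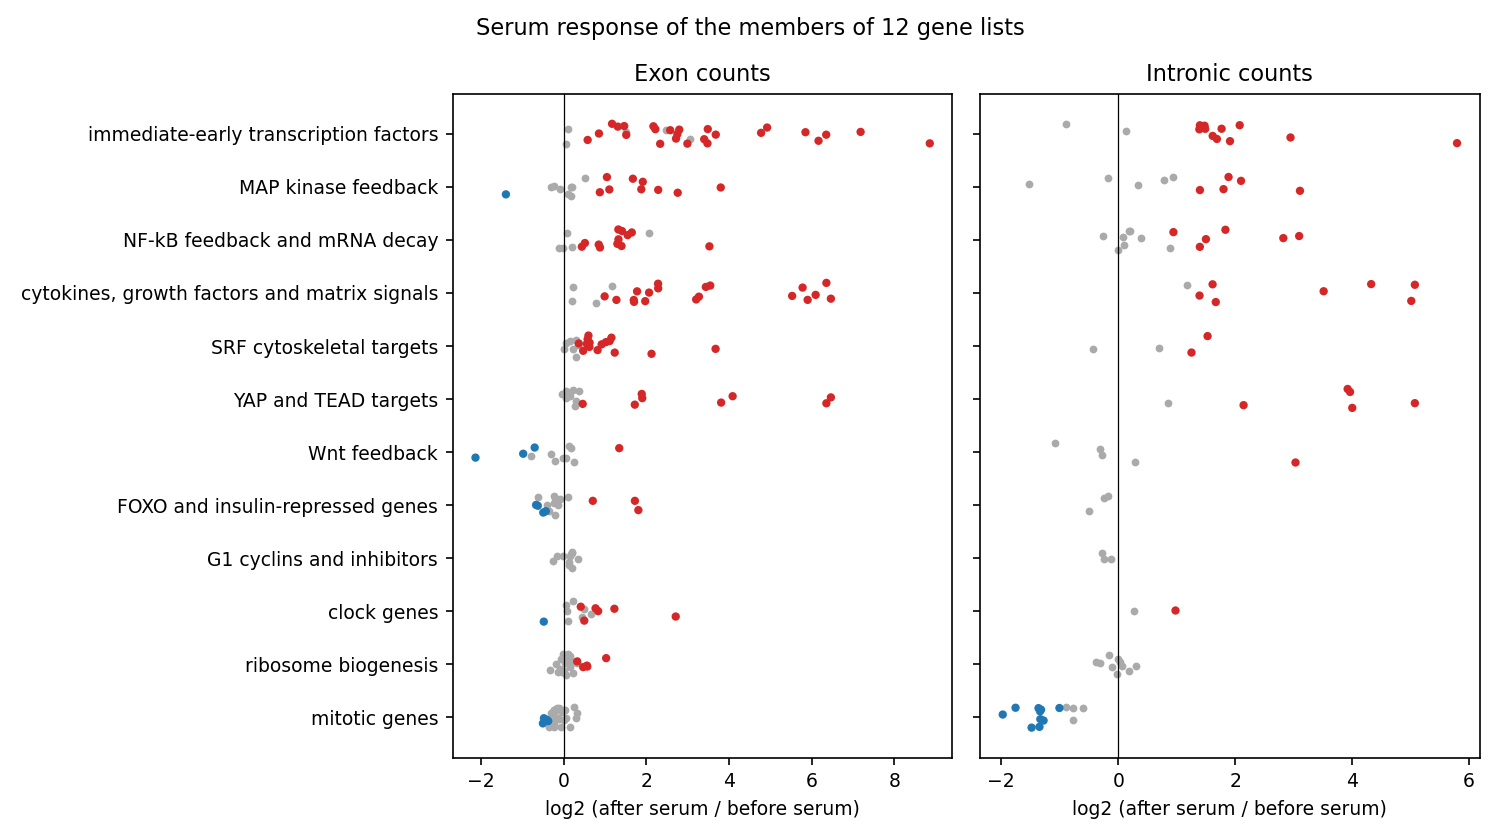
Each point is 1 gene of a list, placed by its log2 change (after against before serum, siControl) in exon counts on the left and in intronic counts on the right, with red for genes that rose, blue for genes that fell and grey for genes that did not pass; genes with no intronic counts before serum are left out on the right. Immediate-early factors and secreted signals reach furthest to the right, and introns of mitotic genes lie to the left.

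Fewer genes fell. AXIN2, the feedback inhibitor of Wnt signalling that scaffolds the destruction of beta-catenin, had the largest fall in gene-body counts under the rule for named genes. It went from 38.2 and 28.4 gene-body CPM to 6.74 and 7.86 (33.3 ± 6.88 against 7.30 ± 0.792, SD, n = 2 per group), a log2 change of -2.19 (SE 0.17, edgeR adjusted p = 2.65e-05). AXIN2 lies at chromosome 17, 65528563 to 65561647 on the minus strand (GRCh38), and AC004805.1, annotated across it on the same strand (-1.69), cannot be told apart from it. RNF43, which removes Wnt receptors from the cell surface, went from 102 and 97.3 gene-body CPM to 52.9 and 44.4. RNF43 overlaps 2 other annotated genes, so its counts are not unique to it. In exon counts AXIN2 (-2.14), RNF43 (-0.98) and BAMBI (-0.70) fell among 12 Wnt feedback genes tested of 16. Of all genes 2.70% fell and 4.61% rose. DKK1, a secreted Wnt antagonist, rose from 106 and 142 exonic CPM to 258 and 371 (log2 change 1.34, adjusted p = 0.0382). SP5 (-0.79), ZNRF3 (-0.30), NKD1 (-0.01) and NOTUM (-0.20) were among the others, which did not pass.

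The other named genes with lower gene-body counts were DDIT4L (log2 change -1.19), GID4 (-1.11), ZNF503 (-1.11), WDCP (-1.08), ZNF436 (-1.08), KCTD14 (-1.05) and the histone gene HIST1H2BJ (-1.02). DDIT4L, ZNF503, WDCP, ZNF436 and KCTD14 overlap other annotated genes, so their counts are not unique to them. GID4, the substrate receptor of a ubiquitin ligase, overlaps no other gene and went from 11.9 and 11.7 gene-body CPM to 5.11 and 5.78. DDIT4L, an inhibitor of mTOR, went from 19.3 and 19.04 gene-body CPM to 7.47 and 9.26, and HIST1H2BJ from 149.9 and 135 gene-body CPM to 65.5 and 74.7. In all 3 both libraries after serum lay below both before it.

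In exon counts 2.70% of all genes fell and 4.61% rose. Genes that FOXO factors activate in starvation, or insulin represses, gave 4 falls and 3 rises among 17 tested of 19. The falls were those of SESN1 (log2 change -0.67), CCNG2 (-0.63), DDIT4 (-0.50) and the cyclin-dependent kinase inhibitor CDKN1B (-0.43). IRS2, an adaptor of the insulin receptor, went from 5.37 and 5.58 exonic CPM to 21.6 and 16.8 (log2 change 1.81), and CITED2 (1.72) and BCL6 (0.70) rose too. None of 11 cyclins, kinases and inhibitors of the G1 phase passed in edgeR, with log2 changes between -0.26 and 0.34, and CCND1 read 523 and 565 exonic CPM without serum and 559 and 628 with it. Of 14 clock genes 6 rose and 1 fell, beside 4.61% and 2.70% of all genes. PER1, a repressor within the clock, went from 22.2 and 24.2 exonic CPM to 167 and 137 (log2 change 2.71, adjusted p = 2.79e-08). PER2 (1.23), NFIL3 (0.83), CRY2 (0.77), CRY1 (0.50) and NR1D2 (0.41) also rose, and DBP (-0.48) fell. Ribosome biogenesis genes gave 5 rises and no fall among 25 (4.61% of all genes rose), with a median of 0.10. RRP12, a factor of ribosome assembly and export, went from 53.0 and 49.2 exonic CPM to 109 and 99.1. Without replicate 1 after serum 3 of these 25 rose.

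Introns gave a separate reading of the response. Those of NR4A3 went from 31 and 37 intronic counts to 1902 and 2432, a log2 change of 5.80 (SE 0.35, edgeR adjusted p = 2.81e-05). CYR61 introns went from 4 and 5 intronic counts to 144 and 213, and those of CXCL8 from 0 and 0 intronic counts to 29 and 41. The noncoding gene AC124276.2 went from 1 and 2 intronic counts to 112 and 129, 70.4 times as many per scaled library (95% exact interval 23.8 to 344, counting error only). LINC00707, also noncoding, went from 3 and 1 intronic counts to 157 and 97, a ratio of 55.7 (21.5 to 206). Among the immediate-early factors 11 of 13 genes with testable introns rose (median 1.62), and among the secreted signals 8 of 9, CYR61 included. Of all genes tested 6.25% rose in introns.

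**Figure D3:**
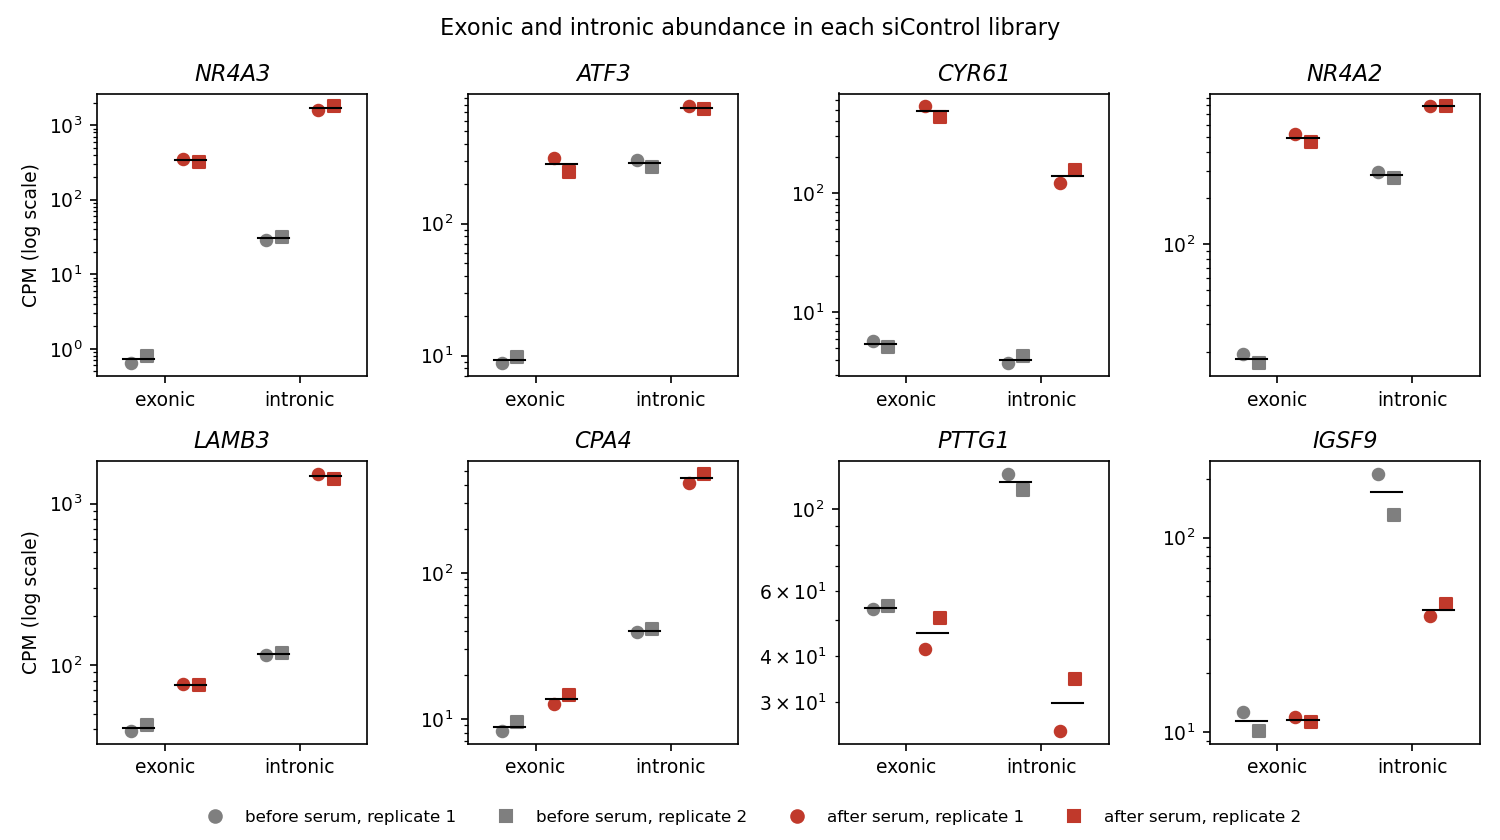
Each panel plots 1 gene, with exonic and intronic CPM on a log axis; points are single siControl libraries (grey before and red after serum, circles replicate 1, squares replicate 2) and lines are group means. NR4A3 and CYR61 rose in both, ATF3 and NR4A2 more in exons, LAMB3 and CPA4 more in introns, and PTTG1 and IGSF9 fell in introns.

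For 84 genes the exonic change lay above the intronic one. In some of them mRNA rose far more than introns. ATF3 introns went from 305 and 269 intronic CPM to 775 and 737 (log2 change 1.40, adjusted p = 0.00735) beside the exonic change given above, a difference of 3.53 (SE 0.26, edgeR adjusted p = 8.12e-05). EGR2 (difference 4.35), NR4A2 (3.31), NR4A3 (3.08), BTG2 (1.82), FOSL1 (1.30) and CSRNP1 (1.05) had the same direction. The value of EGR2 rests on few reads, since its introns held 10 and 9 counts without serum and 27 and 34 with it. That is below the minimum of 50 on average set for named genes. Introns of EGR1 held 89 and 70 counts without serum and 52 and 46 with it. Neither the exonic nor the intronic change of EGR1 passed (2.47 and -0.89 on the log2 scale), while their difference of 3.35 did (SE 0.28, edgeR adjusted p = 0.000106). KLF6 (difference -0.17), KLF10 (0.09) and SRF (0.27) rose in exons and introns without a difference that passed.

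In most of the 84, introns fell while mRNA lay near its level before serum. The median intronic change was -1.25 and the median exonic change 0.01, and 63 were called lower in introns against 6 called higher. These figures describe genes chosen on the same counts and are no test. IGSF9, a cell surface protein of the immunoglobulin family, went from 213 and 130.2 intronic CPM to 39.4 and 45.7 (log2 change -2.01, SE 0.31, adjusted p = 0.00352). Its exons read 12.7 and 10.1 exonic CPM without serum and 11.9 and 11.2 with it, and these groups overlapped. UBALD2 (difference 2.34), PROM2 (1.97), a membrane protein of cell protrusions, and PLEKHB1 (1.83) were the others of this kind that the rule named. PROM2 did not pass without replicate 2 before serum (adjusted p = 0.0752), nor PLEKHB1 without replicate 1 (0.0769).

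PTTG1, the securin that guards sister chromatids until anaphase, went from 124 and 112 intronic CPM to 25.1 and 34.6 (log2 change -1.97, SE 0.29, edgeR adjusted p = 0.00280). Its exons read 53.5 and 54.6 exonic CPM without serum and 41.7 and 50.8 with it (adjusted p = 0.274). A list of 30 mitotic genes was then drawn up, after values had been seen, so that its counts are a description. Of the 14 with testable introns 10 fell and none rose, beside 2.71% lower and 6.25% higher over all genes. The median log2 change was -1.33 against 0.02 for all genes. UBE2C, the ubiquitin carrier of the anaphase-promoting complex, went from 132 and 132 intronic counts to 31 and 59, and the mitotic motor CENPE from 383 and 478 intronic counts to 177 and 172. Introns of TTK (-1.36), AURKA (-1.35), DLGAP5 (-1.34), BIRC5 (-1.33), CCNB1 (-1.32), TPX2 (-1.28) and BUB1 (-1.01) fell as well. MKI67 (-0.90), CDK1 (-0.77), AURKB (-0.77) and CDC20 (-0.60) did not pass. In exons 4 of 30 fell, beside 2.70% of all genes, and the median was -0.22. Those that fell were AURKA (-0.50), KIF20A (-0.48), NEK2 (-0.41) and TOP2A (-0.37). The difference passed in 8 of 14, each with the exonic change above, beside 1.97% of all genes. Without replicate 1 after serum 10 of 14 fell in introns, with a median of -0.996, and 1 of 30 fell in exons.

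For 111 genes introns rose more than exons. The median intronic change was 1.62 and the median exonic change 0.14, again as a description, and 99 were called higher in introns and 27 in exons. LAMB3, a chain of the basement membrane protein laminin-332, went from 123 and 139 intronic counts to 1828 and 1931 (117 ± 2.97 against 1477 ± 76.7 intronic CPM, SD, n = 2 per group). Its intronic log2 change was 3.66 (SE 0.30, adjusted p = 9.24e-05). In exons LAMB3 went from 39.1 and 42.5 exonic CPM to 76.03 and 75.2, a log2 change of 0.89 (SE 0.09), and the difference was -2.75 (SE 0.24, edgeR adjusted p = 0.000124). CPA4, a secreted carboxypeptidase whose promoter is shown above, went from 42 and 48 intronic counts to 491 and 646 and from 8.27 and 9.44 exonic CPM to 12.6 and 14.6 (difference -2.83). NT5E, which makes adenosine at the cell surface, went from 214 and 280.2 intronic CPM to 1421 and 1478, while its exons read 40.8 and 51.4 exonic CPM without serum and 42.5 and 59.6 with it, with overlapping groups.

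GDA, a guanine deaminase, went from 465 and 456 intronic counts to 5869 and 3983 (difference -2.95), and SAMD4A, an RNA-binding repressor of translation, from 286 and 438 intronic counts to 7195 and 2932 (-2.87). MGLL (-2.87), a monoglyceride lipase, GPAT3 (-2.45), an enzyme of triglyceride synthesis, and VGLL3 (-2.45), a cofactor of TEAD, completed the named genes. GPAT3 introns went from 115 and 127 intronic counts to 1379 and 627. In GDA, SAMD4A, MGLL, GPAT3 and VGLL3, and by less in LAMB3, the higher intronic CPM after serum was that of replicate 1. That is the library with the high intronic share. Without that library the difference was -2.58 for GDA, -2.28 for SAMD4A, -2.41 for MGLL, -2.86 for CPA4, -2.73 for LAMB3, -1.79 for GPAT3, -1.91 for VGLL3 and -2.23 for NT5E. Without replicate 2 after serum it was -3.07 for GPAT3. VGLL3 did not pass without replicate 1 or 2 before serum (difference -1.92 and -3.36, edgeR adjusted p = 0.181 and 0.0579). Of the listed genes, F3 (-2.28), WWC1 (-1.84), DKK1 (-1.73), RELB (-1.67), NFKB1 (-1.67), KRT19 (-1.46), DUSP14 (-1.19) and TPM2 (-1.10) had a larger change in introns. F3 introns went from 50 and 65 intronic counts to 913 and 1199. NFKB1, the p105 precursor of NF-kB, went from 436 and 542 intronic counts to 2432 and 1457. For NFKB1 the higher count after serum was again that of replicate 1, whereas for F3 it was that of replicate 2. Exons of NFKB1 stayed between 46.9 and 53.6 exonic CPM.

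**Figure D4:**
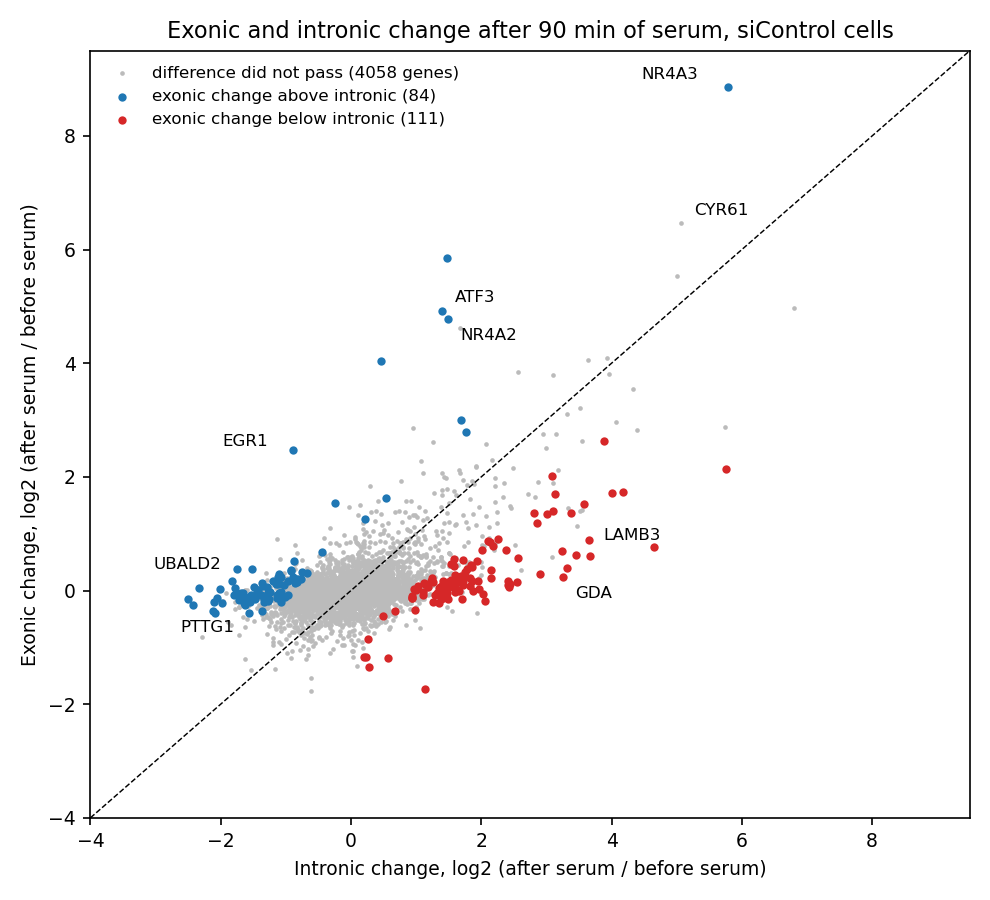
Each point is 1 gene without overlap, placed by its intronic and exonic log2 change after serum in siControl cells; genes with 0 counts in both libraries of a group are left out. The dashed line marks equal change, blue points are the 84 genes with an exonic change above the intronic one and red points the 111 with one below it, and most of them lie near 0 on the exonic axis.

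The direction of these differences was then read in libraries that had no part in the calls. In siPFDN2 cells 82 of the 84 genes again had an exonic change above the intronic one, and 110 of the 111 one below it; the same sign was found for 67.4% of all 4255 genes. One siPFDN2 library before serum stood apart by its trend with GC content (Spearman correlation 0.691 across 27632 genes, against -0.281 to 0.133 in the other 11). Without it the counts were 84 of 84 and 111 of 111, against 74.1% of all genes. In cells labelled siPFDN5 they were 73 of 84 and 97 of 111, against 54.2%. Most of the 4255 genes had no difference that passed in siControl, so the sign of their difference is less settled. The shares are therefore a description, and their gap is no measure of replication. PFDN5 itself read 67.5 and 68.6 gene-body CPM after serum in the cells labelled siPFDN5, against 67.9 and 74.0 in siControl. The intronic log2 change of LAMB3 was 3.51 with siPFDN2 and 3.38 in cells labelled siPFDN5, and that of IGSF9 -1.91 and -1.30.

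Gene length was set beside the intronic change in the genes tested for both. With all 4 libraries the median intronic log2 change was -0.10 in 880 genes under 10 kb and -0.06 in 1615 genes of 10 to 30 kb. It was 0.06 in 1376 genes of 30 to 100 kb, 0.21 in 362 genes of 100 to 300 kb and 0.62 in 22 longer genes. Without replicate 1 after serum these medians were 0.05, 0.00, -0.05, -0.10 and -0.01 in the same order, so that the rise with length rested on that library. Exonic medians lay between -0.03 and 0.07 in both settings.

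**Figure D5:**
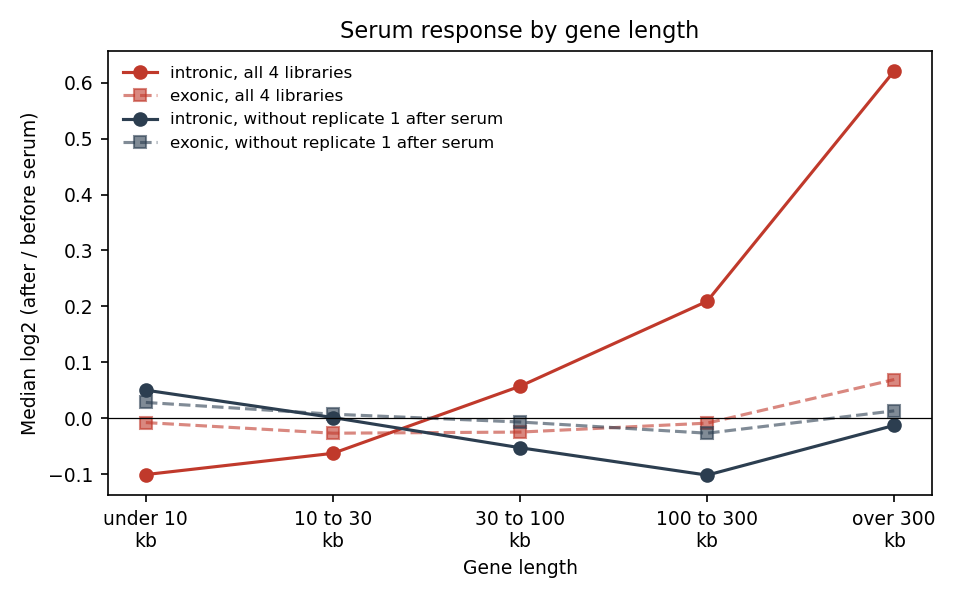
Median log2 change after serum is plotted against gene length in 5 bins, for introns (circles, solid lines) and exons (squares, dashed lines), with all 4 siControl libraries (red) and without replicate 1 after serum (dark). The intronic median reaches 0.62 in the longest genes with all 4 libraries and -0.01 without that replicate.

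Motif matches were counted in the 250 bases before the first RefSeq start of each gene, on both strands. Of 482 genes that rose in exon counts by at least 1 on the log2 scale, 248 had a promoter in the table. A CArG box lay in 5.24% of these, against 0.997% of 12944 promoters of tested genes and 1.14% of all 27305. TGANTCA (AP-1) lay in 12.5%, against 4.29% and 6.6%, and the cyclic AMP response element TGACGTCA in 6.85%, against 2.71% and 1.77%. GGAATG (TEAD) gave 13.3%, 9.74% and 11.9%, and the TCF/LEF core CTTTGAT 1.21%, 1.40% and 2.28%. In the 684 promoters of all genes that rose, whatever the size of the change, the shares were 2.78% for CArG boxes, 8.04% for AP-1, 5.99% for the cyclic AMP element, 10.5% for TEAD and 1.46% for TCF/LEF. In 470 promoters of genes that fell they were 0.851%, 3.62%, 1.49%, 5.53% and 2.55% in the same order. No letters of one motif make up another, and a match describes the sequence and does not show that a factor binds.

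By gene type, of 14736 protein-coding genes 769 rose (5.22%) and 571 fell (3.87%) in exon counts, beside 4.61% and 2.70% of all genes tested. Of 1289 long intergenic noncoding RNAs 76 rose (5.90%) and 6 fell (0.465%), and of 2755 antisense genes 101 rose (3.67%) and 28 fell (1.02%). In these types the shares that rose lay near that of all genes, and the noncoding shares that fell lay below it. Other types lay further off, such as sense intronic genes (7.28% higher) and processed pseudogenes (1.78% higher). Antisense genes share reads with the gene on the other strand, since the counts ignore strand.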

How the data were processed

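The 4 siControl libraries were taken from 2 deposited tables of raw counts for 58051 genes. Per the file headers, the authors made both with featureCounts, over gene bodies and over exons, requiring both ends mapped, counting a fragment over several genes for each, with no strand option, on the Ensembl 87 annotation. The submitters' processing notes name HISAT2 0.12.2, featureCounts 1.5.2, kallisto 0.43 and GRCh38.p7. Names for 57447 genes came from GENCODE 29. The tables hold 6 columns that match no sample and were not used, and per-transcript estimates were not used.

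Counts were fitted with edgeR 4.0.16 (R 4.3.3; TMM scaling per table, filterByExpr, robust quasi-likelihood fit) on the 4 libraries, because another library of the series stands apart by GC content. Intronic counts were gene-body minus exon counts for 13190 genes with an intron and no overlap. The difference of exonic and intronic change was fitted over 8 columns with the library as a block. Fits were also run on counts simulated with a common dispersion and no library set apart, so these runs do not measure the error in these data. P-values were adjusted over all genes tested, and precision rests on 2 libraries per group. The SE of a log2 change was taken as its absolute value divided by the square root of the F statistic of the edgeR test. In other siRNA groups, log2 changes are differences of the group means of log2 CPM, with 0.5 added to each count.

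Named genes were those with the largest log2 changes among called genes whose groups did not overlap: 10 in each direction for gene bodies (mean log2 CPM of at least 3), 5 for introns and 8 for the difference (at least 50 counts on average); list members were also named. Some items are not reported here. The members and gene lists were chosen with earlier results of these data known, and the mitotic list and 2 sets of values without replicate 1 after serum were chosen after seeing the data. Alternatives were DESeq2 1.42.0, other scalings, filters, overlap rules, library sets, a GC correction and a replicate block.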

Additional observations from a re-analysis of the deposited data

Results flagged for a closer look

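Of 46 named values compared with siPFDN2 and with siPFDN5 (92 comparisons), 2 moved in opposite directions in siControl and in cells labelled siPFDN5. In each, libraries after serum did not overlap those before it, a rule that sets no minimum size. These differences were not tested. Gene-body CPM of HIST1H2BJ, scaled here over all 12 libraries, read 144 and 129 in siControl cells without serum and 63.4 and 71.6 with it. In cells labelled siPFDN5 it read 86.7 and 84.1 without serum and 112 and 98.0 with it. The log2 ratio of exonic to intronic CPM of PROM2 was -2.73 and -3.06 in siControl cells without serum and -0.53 and -1.33 with it. In cells labelled siPFDN5 it was -1.70 and -1.69, then -1.77 and -1.86, a small move beside that in siControl cells.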

How the results depend on the processing

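Of genes called with the 4 libraries, the fewest were called again for the difference without replicate 2 before serum (36 of 195), in exons with all 12 libraries (511 of 1720), in introns without replicate 1 before serum (182 of 423) and in gene bodies without replicate 1 before serum (561 of 1065). Of 678 values of named genes, 671 kept their side of the threshold; the 7 others were ZNF503 with all 12 libraries (adjusted p = 0.104) and values of PLEKHB1, VGLL3 and PROM2 (adjusted p between 0.0579 and 0.181). Counts of calls moved more. Without a filter on low counts there were 2303 gene-body, 2594 exonic and 660 intronic calls and 410 for the difference. In the fit of all 12 libraries, exonic calls numbered 529, intronic 652 and the difference 433; leaving out siPFDN2 replicate 2 before serum gave 2889 gene-body, 3137 exonic and 993 intronic calls and 653 for the difference. Restricting gene bodies to genes without overlap gave 645, and admitting any overlap gave 1140 intronic calls and 389 for the difference. For the difference, removing the GC trend gave 353 calls, and scaling exons and introns by gene-body factors gave 56 calls. Leaving out 1 library at a time gave 732 to 4490 gene-body, 1207 to 2442 exonic and 187 to 1319 intronic calls, 37 to 917 for the difference, and an intronic share difference of -0.478 to 2.82 points, reversed without replicate 1 after serum. The arm left with 1 library is then assumed to vary like the other. With the replicate block there were 1915 gene-body, 2799 exonic and 258 intronic calls and 251 for the difference, but the 2 pairs share only a number (correlation of replicate differences -0.185, 0.0855 and -0.472). The cause of these moves was not tested. Of 44 list counts without replicate 1 after serum, 39 stayed within 1.5 times.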
